A study of Mus musculus with 5 samples.

Results

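The comparison described here set 1 array of alveolar epithelial type II (AEC-II) cultures given doxycycline (Dox) for 2 weeks, 2WND+2W+D, against 1 array of the culture before Dox, 2WND. Its members were the genes whose log2 values were subtracted, 2WND+2W+D minus 2WND. A gene entered when it had a probe paired with exactly 1 gene symbol, represented by the probe with the highest mean, and when its highest value over the 5 arrays of the series reached 4.78, the median of all values. These were 15436 of the 22180 genes with such a probe, on a platform table of 41345 probes. The study isolated its cells from R26-rtTA/Col1a1::tetO-4F2A mice, which carry 2 transgenes. These are a Dox-dependent activator made from the Rosa26 locus and a tet-controlled cassette of Oct4, Sox2, Klf4 and Myc (OSKM). The paper describes the profiling beside cells of this line with an added Oct4-GFP reporter. It does not state separately which of the genotypes the arrays used. Both groups were sorted from digested lungs as CD45neg CD31neg EpCAMpos cells and grown in Matrigel over a feeder layer of mouse embryonic fibroblasts (MEFs) on filter inserts. In 2WND+2W+D the cells had been passaged after the first 2 weeks and were kept with Dox in ES medium for 2 more weeks. In 2WND they had been cultured for 2 weeks without Dox in epithelial-specific medium. Dox, the medium, the passage and the age of the culture therefore differ together and cannot be told apart. According to the methods, equal amounts of RNA from several samples of each group were used, without stating whether they were combined on 1 array, and neither the removal of feeder cells nor the age of the donor mice is given for the arrays. The other arrays, of freshly isolated cells (Day0), of cultures 2 weeks after Dox withdrawal (2WND+2W+D+2W-D) and of iPS cells, served for the level filter and are given as levels.

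AEC-II cells make and store pulmonary surfactant and, after injury, divide and give rise to the flat alveolar type I (AEC-I) cells that carry gas exchange. The 4 OSKM factors can reset a differentiated cell to a pluripotent one over several weeks, and the early steps are known for the loss of the starting cell's gene program and for a change in proliferation. When induction is stopped early, cells can in many systems return towards their former identity. Contractile, squamous and mucous gene programs, which come up below, belong in the body to smooth muscle, to stratified epithelia and to stomach or airway mucosa.

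With 1 array a side there is no replicate, so no test was run and no difference has a p-value. As a scale for the size of a difference, the robust spread over the genes compared (the median absolute deviation scaled to a standard deviation) was 0.50 log2 between 2WND+2W+D and 2WND and 0.23 between the most alike pair of arrays, 2WND+2W+D+2W-D and 2WND. Values are on the log2 scale, on which 1 stands for 2-fold. If a single array of the pair lay below 4.78, its value was replaced by 4.78 and the fold is a lower limit, written "at least". The 8 AEC-II markers checked were all above 4.78 on both arrays, with 2 of them at least 2-fold lower. Of the 8, the surfactant gene Sftpb had 12.04 in 2WND+2W+D and 12.32 in 2WND, and Sftpc had 13.43 and 13.44. The Sftpc value was the highest on the 2WND+2W+D array, and the highest on any array was 13.58. A level reading so near the top of the scale cannot show that Sftpc expression was unchanged. By qRT-PCR, the paper reports more surfactant protein C RNA in cultures with Dox than before Dox. The cultures also carried markers of other cells. All 5 smooth muscle markers and 3 of 4 fibroblast markers were higher in 2WND+2W+D, whereas all 4 ciliated, all 4 macrophage and both leukocyte markers were lower. On the linear scale the summed signal of the fibroblast markers was 8406 in 2WND+2W+D and 2509 in 2WND, that of the macrophage markers 350.2 and 6437, and that of the leukocyte markers 229 and 1595. In RNA from a whole culture, fewer cells of a type and less RNA per cell cannot be told apart, and the part of these cells in the results below was not tested.

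The 2-fold threshold was passed upwards in 2WND+2W+D by 1065 genes (6.9% of those compared) and downwards by 1167 (7.56%), 14.5% in all. With every value below 4.78 raised to it, the counts were 942 (6.1%) and 1039 (6.73%). At 4-fold, 239 genes were higher and 297 lower, at 16-fold 25 and 28, and at 64-fold 1 and 3. The gene past 64-fold upwards was Cnn1, which encodes calponin of smooth muscle, and the 3 downwards were Chil3, a chitinase-like gene of alveolar macrophages, Cyp2b10, a cytochrome P450 gene, and Mmp8, the neutrophil collagenase gene. Counted from 4.78, Cyp2b10 was at least 52.0-fold lower. Just inside the 2-fold threshold lay Dmrt2 (1.0001) and Epn3 (-1.0003), and just outside it Tle2 (0.9996) and Polr3gl (-0.9995).

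Most of the 25 most raised named genes were of 3 kinds. Contractile and matrix genes were Cnn1, Actg2, Lrrc15, Tnmd, Abi3bp, Itga11, Ltbp2 and Cemip. Cornifying or squamous genes were Sprr2b, Krt16, Krt6a, Tgm1, Slurp1 and Ly6g6c, and genes of the gastric mucosa were Muc5ac, Ctse and Anxa10. Sprr2b, a cornified envelope precursor, had a log2 value of 12.02 in 2WND+2W+D and 6.32 in 2WND. Ctse, the aspartic protease cathepsin E, had 11.91 in 2WND+2W+D and 6.19 in 2WND. All 25 had their highest value of the 5 arrays in 2WND+2W+D, as did 830 of all 1065 higher genes (77.9%). Higher genes were picked by their 2WND+2W+D value, so a peak there is partly built in, the more so for the largest differences. Some, such as Anxa10 and Krt16, passed the level filter only through that array. In Ctse the series ran 4.76 on Day0, 6.19 in 2WND, 11.91 in 2WND+2W+D, 5.88 in 2WND+2W+D+2W-D and 4.98 in the iPS array. Among the 25 most lowered genes, 7 had their lowest value of the 5 arrays in 2WND+2W+D, as did 471 of all 1167 lower genes (40.4%). They included genes of cilia (Pifo, Dynlrb2, Tmem212, Fam183b, Cfap206, Rsph1, Rsph4a), of macrophages (Chil3, Clec4a3, Ms4a4a, Atp6v0d2), of the metabolism of foreign compounds (Cyp2b10, Fmo2, Ces1g, Gsta3, Pon1) and of airway secretion (Bpifa1). Fmo2, a flavin monooxygenase of the lung, had 6.93 in 2WND+2W+D and 12.01 in 2WND, a 33.7-fold difference with both arrays above 4.78.

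**Figure D1:**
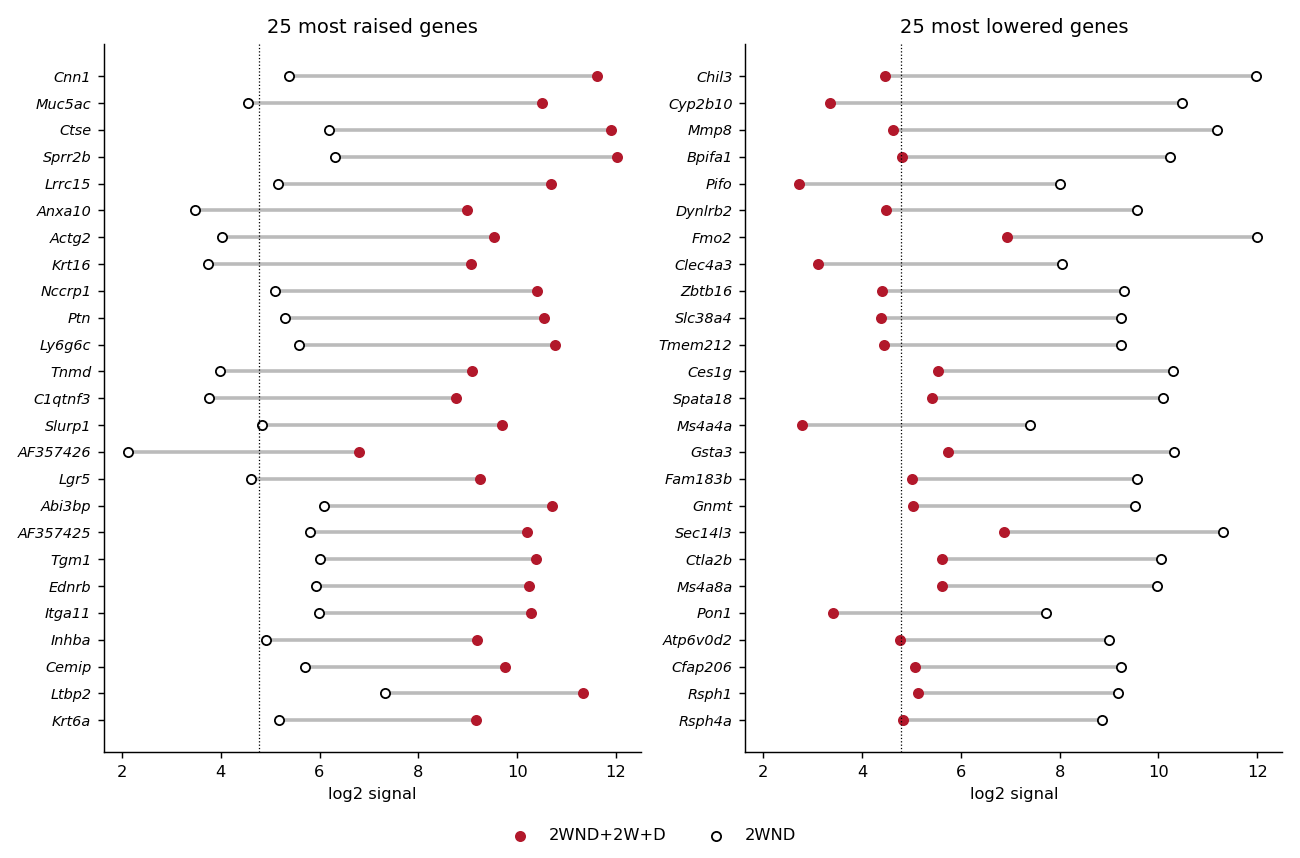
Log2 signal of the 25 most raised (left) and the 25 most lowered genes (right) in 2WND+2W+D (filled) and 2WND (open), 1 array each, with the median of all values, 4.78, as a dotted line. Cnn1 stood at 11.62 in 2WND+2W+D and 5.38 in 2WND, and Chil3 at 4.46 in 2WND+2W+D and 11.97 in 2WND.

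The smooth muscle contractile list had the largest median among the lists. Beside contractile genes it holds the integrin genes Itga5 and Itga8 and the channel subunit gene Kcnmb1, all of them higher. Itga5 and Des are counted again in other lists below. Of its 20 genes with a probe, 16 were at least 2-fold higher in 2WND+2W+D, 4 were within 2-fold and 0 were lower, with a median difference of 2.12 against -0.05 over all genes compared. Actg2, the enteric smooth muscle actin, had 9.53 in 2WND+2W+D and 4.03 in 2WND, which is at least 26.8-fold. Myl9, the regulatory light chain of smooth muscle myosin, had 11.40 in 2WND+2W+D and 7.84 in 2WND. Myh11, the smooth muscle myosin heavy chain and the most restricted gene of this kind, had 8.92 in 2WND+2W+D and 5.46 in 2WND, a difference of 3.46. On the array after withdrawal Myh11 was at 5.59 and Myl9 at 8.54. All 16 higher genes had their highest value of the 5 arrays in 2WND+2W+D, where 77.9% of all higher genes had theirs. In iPS cells Myh11 was at 5.61 whereas Tagln, the transgelin gene, was at 10.50, so the 2 did not go together on every array.

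The broader actin cytoskeleton lay the same way, with 13 of 22 genes higher and 0 lower (median 1.21). Pdlim7 and Fhl2, which encode LIM-domain proteins of actin fibres, were 4.30-fold and 4.23-fold higher. The filamins Flnc (10.12 in 2WND+2W+D, against 8.21 in 2WND) and Flna (11.71, against 9.97), vinculin (Vcl, 11.47, against 9.76) and zyxin (Zyx, 10.54, against 8.95) were higher as well. In contrast, skeletal and cardiac muscle genes stayed mostly within 2-fold (17 of 20), with Des (desmin, 4.17-fold) and Acta1 (skeletal actin, 3.15-fold) as the 2 higher ones and Mylpf, a fast skeletal myosin light chain, as the lower one, just past the threshold. Many contractile genes are known to carry a CArG box, the site of serum response factor, in their promoters. In the 250 bases before the start of each gene, taken from RefSeq (GRCm38.p6) and searched on both strands, a CArG box was found in 1.41% of the 12026 genes compared that have a promoter sequence, in 3.04% of those at least 2-fold higher and in 1.73% of those at least 2-fold lower. It was found in 1 of 16 promoters of the contractile list and in 5 of 19 of the actin list, which was searched after the values were seen. The one in the contractile list is Myl9 and is shown because this gene is among the most raised, with the CArG box in capitals (chr2:156775248-156775367, plus strand, bases 216 to 97 before the start):
Myl9: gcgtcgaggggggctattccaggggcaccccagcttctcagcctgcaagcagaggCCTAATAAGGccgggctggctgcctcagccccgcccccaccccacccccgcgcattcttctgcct

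**Figure D2:**
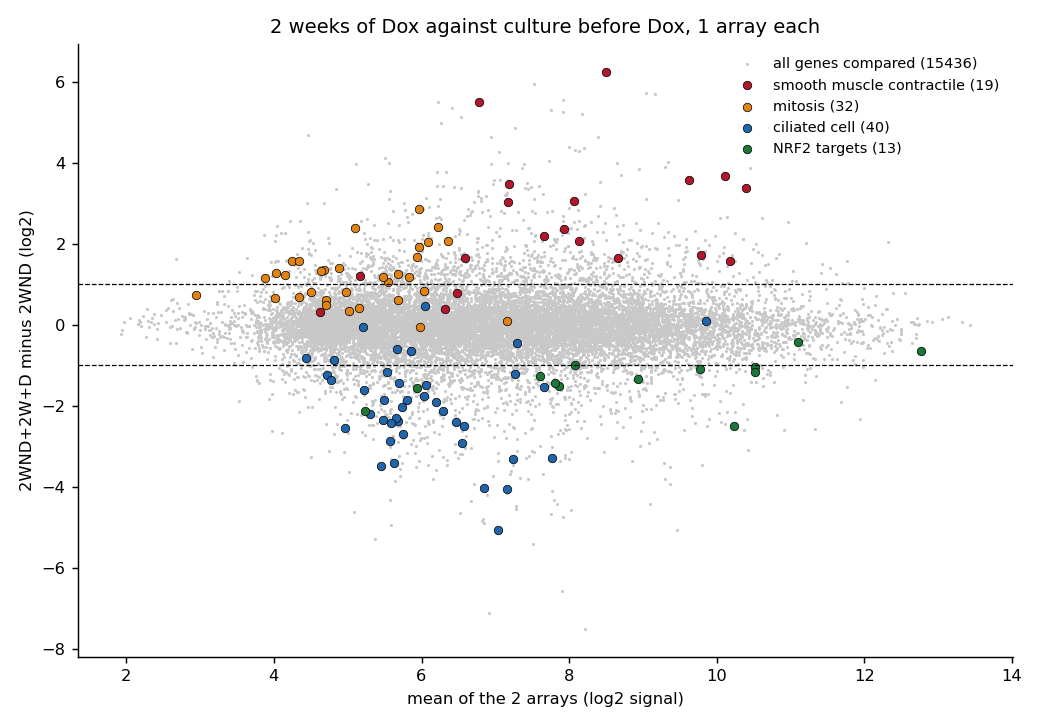
Mean log2 signal of the 2 arrays (horizontal) and difference 2WND+2W+D minus 2WND (vertical) for all 15436 genes compared, with members of 4 lists that pass the level filter in colour and dashed lines at 2-fold. Most smooth muscle genes (16 of 19) lie above the upper line over a wide range of levels, most ciliated cell genes (32 of 40) below the lower one, the NRF2 targets around and below it, and many mitosis genes sit at low levels.

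Genes of the extracellular matrix formed the second large group on the higher side. Of 9 fibrillar collagen genes 6 were higher and 0 lower (median 1.73), led by Col5a2 (9.57 in 2WND+2W+D, against 7.02 in 2WND), a minor fibril collagen that regulates fibre diameter. Of 24 other collagens 6 were higher and 1 was lower. Col10a1, best known from hypertrophic cartilage, stood at 8.92 in 2WND+2W+D and 4.96 in 2WND, a 15.6-fold difference, and Col12a1, a fibril-associated collagen, was 6.23-fold higher. The lower one was Col4a3 (6.69 in 2WND+2W+D, against 7.90 in 2WND), a basement membrane chain made by AEC-I cells. Of 14 genes for collagen modification and crosslinking 6 were higher, among them the prolyl hydroxylase subunit gene P4ha3 (5.86-fold) and the collagen chaperone gene Serpinh1 (3.10-fold). Lox, the lysyl oxidase gene, differed by 0.87 and did not reach 2-fold.

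Matricellular and elastic fibre genes were higher in 13 of 22 cases and lower in 0 (median 1.32). Tnc, which encodes tenascin-C, a protein of healing wounds, had 12.38 in 2WND+2W+D and 8.52 in 2WND. Its values over the series were 4.24 on Day0, 8.52 in 2WND, 12.38 in 2WND+2W+D, 8.72 in 2WND+2W+D+2W-D and 9.58 in the iPS array. Fmod (fibromodulin, 8.08-fold), Fbn2 (fibrillin-2, 6.71-fold) and Thbs1 (thrombospondin-1, 4.11-fold) were also higher, and Thbs1 reached 13.33, where the highest value on any array was 13.58. A second Fmod probe differed by only 0.33. Of 22 metalloprotease and inhibitor genes, 11 were higher and 2 lower (median 1.08). The ADAMTS proteases, which cut proteoglycans, supplied Adamts4 (a difference of 3.17), Adamts12 (5.24-fold), Adamts5 (4.85-fold), Adamts1 (4.49-fold) and Adamts9 (4.12-fold). By symbol, 8 of the 15 Adamts genes that passed the level filter were higher and 1 lower. Mmp12, the macrophage metalloelastase gene, was 10.7-fold higher (9.31 in 2WND+2W+D, against 5.89 in 2WND) although the macrophage markers were lower, whereas Mmp8 was at least 84.9-fold lower and Timp4, a protease inhibitor gene, at least 4.62-fold lower.

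Integrins and laminins, through which cells hold to this matrix, were higher in 15 of 28 cases and lower in 1 (median 1.03). The collagen-binding alpha subunits were prominent. Itga11 had 10.27 in 2WND+2W+D and 5.99 in 2WND, Itga2 had 9.36 and 5.40, and Itga1 had 9.30 and 6.93. The fibronectin receptor subunit gene Itga5 was 2.98-fold higher, and the epithelial Itgb6, whose product activates latent TGF-beta, was 3.33-fold higher. Laminin-332, the anchoring laminin of epithelia, was represented by Lama3 (8.76 in 2WND+2W+D, against 6.79 in 2WND) and by Lamb3, which differed by 0.74. Counted by symbol among genes that passed the level filter, 8 of 16 Itga genes were higher and 0 lower. Of 8 Itgb genes 3 were higher and 1, Itgb2 of leukocytes, was lower (-2.57).

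The integrin pair alpha6 beta4, which the study used to mark alveolar progenitors, was higher by 1.24 for Itga6 (8.47 in 2WND+2W+D, against 7.23 in 2WND) and by 1.39 for Itgb4 (8.21, against 6.83). The other hemidesmosome genes that reached 2-fold were Lama3, Plec (plectin, 2.51-fold) and Dst (dystonin, 2.50-fold), 5 of 19 in the desmosome and hemidesmosome list, with 0 lower. Itgb4 was at 6.59 on Day0 and 6.50 in iPS cells. Hopx, the other progenitor marker of the study and a homeodomain-only gene of AEC-I cells, lay in the opposite direction, at 4.69 in 2WND+2W+D and 6.10 in 2WND, at least 2.50-fold lower. The study scored these markers as protein, and after Dox it found Hopx in most cells positive for surfactant protein C. The values here are RNA of a whole culture, a different measure.

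**Figure D3:**
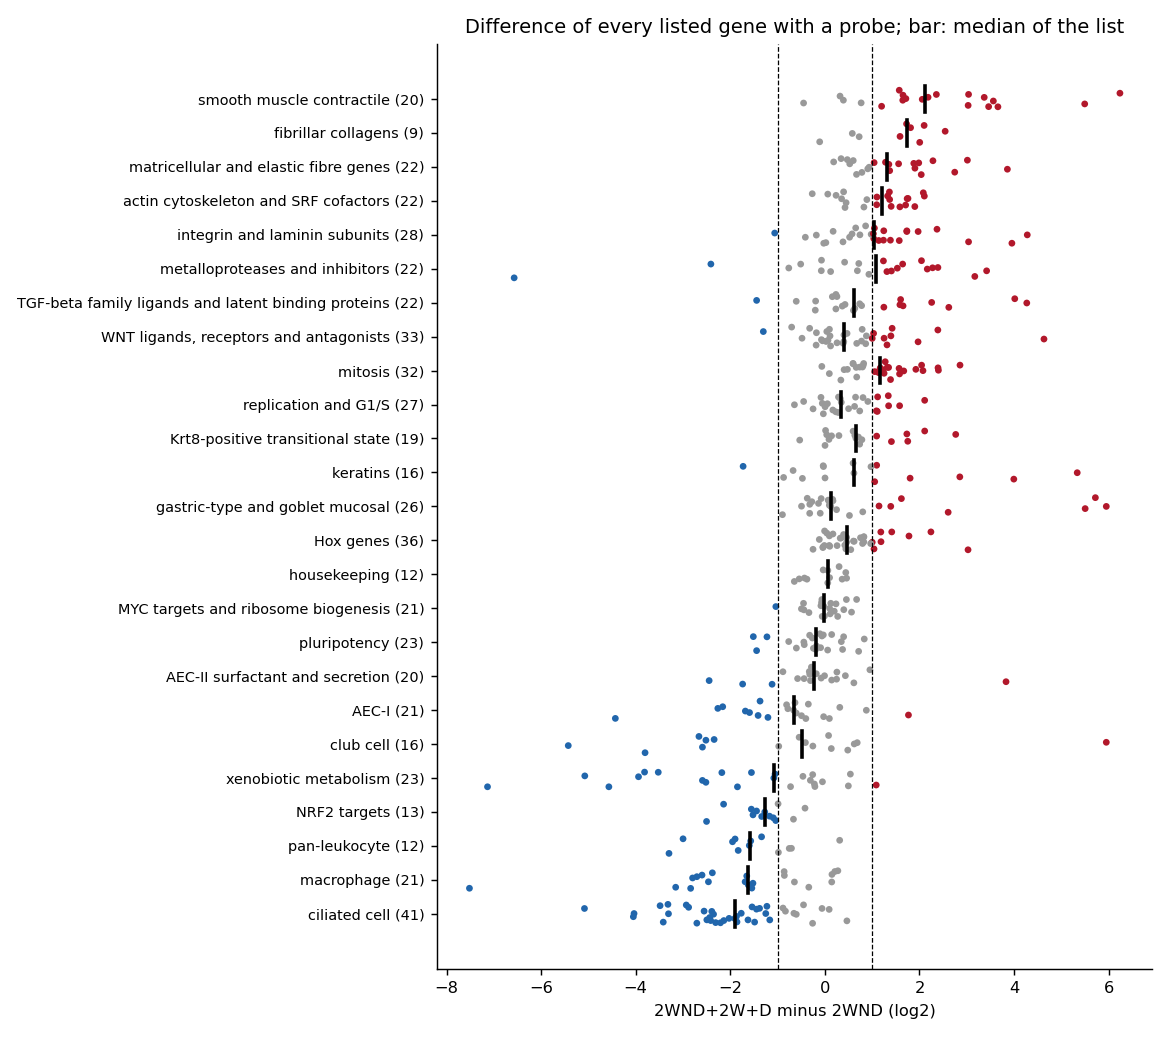
Difference 2WND+2W+D minus 2WND (log2) of every listed gene with a probe in 25 lists (the number of genes in parentheses), with red for at least 2-fold higher, blue for at least 2-fold lower, grey for within 2-fold, and a black bar at the list's median. Medians ran from 2.12 for the smooth muscle list to -1.90 for the ciliated cell list, with housekeeping genes at 0.06.

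Secreted ligands and their binding proteins were among the higher genes as well. Of 22 TGF-beta family ligand and binding protein genes, 8 were higher and 1 lower (median 0.62). Inhba, the activin A subunit gene, had 9.18 in 2WND+2W+D and 4.91 in 2WND. Ltbp2, a latent TGF-beta binding protein, had 11.34 and 7.33, and Tgfb3 had 11.36 and 8.74. The activin and BMP antagonists Grem1 (4.79-fold), Fst (3.04-fold) and Fstl1 (3.15-fold) were higher together with the ligands, and Bmp5 was 2.72-fold lower. Among receptors and response genes, 5 of 20 were higher and 1 lower. These were Ccn2 (4.29-fold), Tgfbi (3.85-fold), the inhibitory Smad7 (2.99-fold), Id3 (2.75-fold) and Pmepa1 (2.25-fold), against Bambi, a pseudoreceptor, which was 2.84-fold lower. YAP and TEAD targets had 3 of 13 higher, with Ankrd1, a muscle ankyrin repeat gene that stretch induces, at 8.22 in 2WND+2W+D and 4.85 in 2WND.

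Of 33 WNT pathway genes 9 were higher and 1 lower (median 0.40). Lgr5, a receptor for R-spondins and a stem cell marker of gut and stomach, had 9.25 in 2WND+2W+D and 4.62 in 2WND, at least 22.2-fold. A second Lgr5 probe read 4.32 in 2WND+2W+D and 4.10 in 2WND, so the difference rests on 1 probe. Its ligands Rspo2 (2.68-fold) and Rspo3 (2.63-fold), the non-canonical ligand Wnt5a (3.92-fold) and the secreted antagonists Sfrp1 (5.24-fold), Dkk2 (2.49-fold) and Dkk3 (2.38-fold) were also higher. Notum, a WNT-inactivating enzyme, was the lower one, but its 2 probes differed in direction (-1.30 and 0.33). Genes that report FGF and EGF signalling had 4 of 14 higher and 0 lower (median 0.67): the ETS factors Etv1 (3.69-fold) and Etv4 (2.99-fold) and the feedback inhibitors Spry4 (3.13-fold) and Spred3 (2.65-fold). The EGF-type ligand Ereg (epiregulin) was 4.81-fold higher, but its second probe differed by only 0.41. LIF is a usual component of ES medium, though the methods do not state that this medium held it. Of 12 genes listed for LIF and STAT3 signalling, 2 were higher and 2 lower. The cytokine genes Il6 and Il11 were higher, Il6 not when counted from 4.78. Socs2 and the receptor gene Lifr were lower, and Socs3 differed by -0.15. A second Socs2 probe differed by -0.47, within 2-fold.

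Genes of mitosis stood higher at low signal levels. Of 32, 19 were at least 2-fold higher and 0 lower (median 1.17). With values below 4.78 raised to it 11 remained, and the median was 0.54. Mki67, the Ki-67 antigen gene, had 7.39 in 2WND+2W+D and 4.53 in 2WND. Cdc20, an activator of the anaphase-promoting complex, had 7.42 and 5.02. Plk1 and Tpx2, a kinase and a spindle protein, were 3.79-fold and 3.18-fold higher. All 19 had their highest value of the 5 arrays in iPS cells, and Cdc20 ran 7.22 on Day0, 5.02 in 2WND, 7.42 in 2WND+2W+D, 6.53 in 2WND+2W+D+2W-D and 11.11 in the iPS array. Replication genes were less numerous, with 7 of 27 higher and 0 lower (median 0.35), led by Rrm2, a ribonucleotide reductase subunit (4.32-fold), and the helicase subunits Mcm5 (2.53-fold) and Mcm6 (2.16-fold). A second Rrm2 probe differed by only 0.59. MYC targets of ribosome biogenesis did not follow, with 20 of 21 within 2-fold and a median of -0.01.

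Mitotic promoters are known for a CHR element, TTTGAA, together with CCAAT boxes. TTTGAA on either strand occurred in 10 of 27 promoters of the mitosis list (37.0%) and in 12.9% of all genes compared with a promoter sequence. CCAAT occurred in 21 of 27 (77.8%) and in 39.3% of all. Among all genes at least 2-fold higher, TTTGAA was found in 13.7% and CCAAT in 39.4%. The stretches of the 2 most raised mitosis genes that hold it are printed with TTTGAA in capitals, from the minus strand of chr7:135716415-135716534 for Mki67 and of chr4:118437344-118437463 for Cdc20:
Mki67: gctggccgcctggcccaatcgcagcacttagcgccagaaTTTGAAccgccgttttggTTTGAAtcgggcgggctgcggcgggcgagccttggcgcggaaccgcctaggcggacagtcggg
Cdc20: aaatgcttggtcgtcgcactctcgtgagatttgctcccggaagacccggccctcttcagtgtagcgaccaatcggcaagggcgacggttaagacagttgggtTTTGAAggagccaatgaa

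Some genes of the gastric mucosa and of squamous epithelium were among the most raised, although most members of both lists were within 2-fold. Of 26 gastric-type and goblet genes with a probe, 7 were higher and 0 lower. Muc5ac, the gel-forming mucin of stomach surface cells and airway goblet cells, had 10.50 in 2WND+2W+D and 4.55 in 2WND, at least 52.7-fold. Anxa10, an annexin of gastric epithelium, had 8.97 and 3.47. The trefoil factors Tff1 (6.09-fold) and Tff2 (at least 2.18-fold) and gastrokine 1, Gkn1 (at least 2.99-fold), were higher as well, and Vsig1, below 4.78 on both arrays, was the last of the 7. The remaining members stayed within 2-fold, 10 of the 26 lay below 4.78 on both arrays, and the list median was 0.12, or 0 with dim values raised. Muc5b, the other airway gel mucin, differed by 0.68. Over the series Muc5ac ran 4.84 on Day0, 4.55 in 2WND, 10.50 in 2WND+2W+D, 5.81 in 2WND+2W+D+2W-D and 4.25 in the iPS array.

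Among the 16 keratin genes listed 6 were higher and 1 lower. By symbol, 7 of the 31 Krt genes that passed the level filter were higher and 2 lower. Krt16 and Krt6a, the keratins of wounded and stratified epithelium, had 9.08 and 9.17 in 2WND+2W+D, against 3.74 and 5.18 in 2WND. Krt13 (7.23-fold), a keratin of moist stratified epithelium, and Krt14 (3.49-fold), of basal cells, were higher, whereas Krt17 was 3.31-fold lower. In the cornified envelope list 4 of 20 were higher and 1 lower. Tgm1, the crosslinking transglutaminase, had 10.39 in 2WND+2W+D and 6.02 in 2WND, and Serpinb2 was at least 5.58-fold higher. The basal cell genes did not go with Krt14, since Trp63, their master transcription factor, differed by -0.33 and Krt15 lay below 4.78 on both arrays, although it stood at 9.10 after withdrawal. Among 19 genes of the Krt8-positive intermediate that precedes AEC-I cells after injury, 6 were higher and 0 lower, including the tight junction gene Cldn4 (11.41 in 2WND+2W+D, against 9.30 in 2WND) and the urokinase receptor gene Plaur (2.65-fold).

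**Figure D4:**
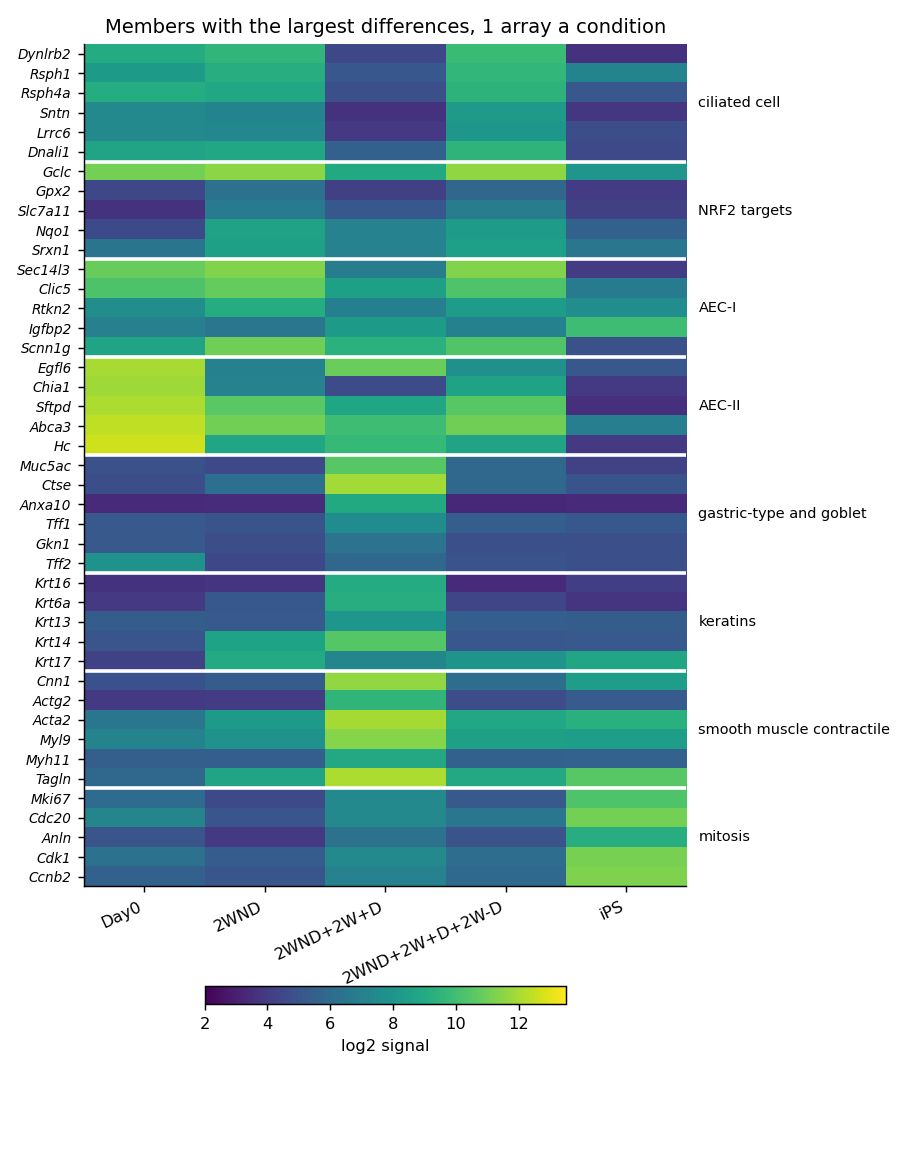
Log2 signal (colour) on the 5 arrays, in the order of the experiment, for the members with the largest differences in 8 lists. Cilia, NRF2 and AEC-I genes other than Igfbp2 are dimmer in 2WND+2W+D than on the arrays on either side of it, gastric, keratin (other than Krt17) and smooth muscle genes are brighter there, and mitosis genes are brightest in iPS cells.

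Surfactant genes were mostly within 2-fold. Of 20 AEC-II genes 16 were within 2-fold, 3 were lower and 1 was higher (median -0.23). The 3 lower ones were Sftpd (8.83 in 2WND+2W+D, against 10.57 in 2WND), Abca3, the lipid transporter of lamellar bodies (9.92, against 11.04), and Chia1, an acidic chitinase (4.67, against 7.12). Egfl6, a secreted EGF-like protein, was the higher one and stood at 10.86 in 2WND+2W+D and 7.03 in 2WND, a 14.2-fold difference, with 11.99 on Day0. Lamp3, the lysosomal membrane gene of lamellar bodies, differed by -0.32, and Cd74 has no probe with a single symbol. Epcam (7.59 in 2WND+2W+D, against 7.56 in 2WND) and Cdh1, E-cadherin (11.56, against 11.79), were level. Of the enzymes and carriers of surfactant lipid, 14 of 16 were within 2-fold, with a median of -0.53.

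AEC-I genes leaned lower, 8 of 21 being lower and 1, the IGF binding protein gene Igfbp2 (3.40-fold), higher (median -0.66). Sec14l3, a lipid-binding protein gene, had 6.88 in 2WND+2W+D and 11.31 in 2WND. Clic5, a chloride channel family gene, had 8.53 and 10.79, and Rtkn2 had 6.95 and 9.11. Ager, the receptor RAGE, was 2.59-fold lower, whereas Pdpn (podoplanin) differed by -0.03 and Aqp5, the water channel, by -0.63. Of 26 lung lineage transcription factors 21 were within 2-fold, 4 were lower and 1 was higher. The lower ones were Sox2 (at least 3.28-fold), Klf5 (2.72-fold), Hopx and Irx1, which lay just past the threshold. Sox9, a factor of distal lung tips, was 2.38-fold higher.

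Of 41 genes of ciliated cells 32 were at least 2-fold lower in 2WND+2W+D, 9 were within 2-fold and 0 were higher, with a median of -1.90. Counted from 4.78, 30 were lower. Foxj1, the master transcription factor of motile cilia, had 6.11 in 2WND+2W+D and 9.42 in 2WND. The radial spoke genes Rsph1 (5.13, against 9.18) and Rsph4a (4.83, against 8.86) and the dynein arm assembly gene Lrrc6 (at least 5.86-fold) were lower, and so was Dnali1, an axonemal dynein chain (5.58, against 8.90). The 2WND+2W+D value was the lowest of the 5 for 20 of the 32 genes, beside 40.4% of all lower genes, with Foxj1 at 8.46 on Day0, 9.42 in 2WND, 6.11 in 2WND+2W+D, 9.76 in 2WND+2W+D+2W-D and 6.88 in the iPS array. By symbol, 18 of 29 Cfap genes, which encode cilia and flagella associated proteins, were lower and 0 higher. Tekt2, a tektin gene, was the member with the highest difference, 0.47. Club cell genes, the other airway kind, were lower in 6 of 16 cases and higher in 1, Muc5ac. Scgb1a1, their secretoglobin, had 7.39 in 2WND+2W+D and 11.19 in 2WND, Cyp2f2 had 10.04 and 12.63, and Bpifa1, an airway lining protein, had 4.80 and 10.23.

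RFX factors are known to drive cilia genes through X-box sites, which hold GTTGCC. It was found on either strand in 14 of 32 promoters of the ciliated list (43.8%), in 12.6% of all genes compared with a promoter sequence, in 16.3% of all genes at least 2-fold lower and in 10.6% of those at least 2-fold higher. The 2 most lowered ciliated genes that hold it are printed with GTTGCC in capitals, both from the plus strand, chr8:116504895-116505014 for Dynlrb2 and chr14:13670753-13670872 for Sntn, a gene of the tip of cilia (at least 5.31-fold lower):
Dynlrb2: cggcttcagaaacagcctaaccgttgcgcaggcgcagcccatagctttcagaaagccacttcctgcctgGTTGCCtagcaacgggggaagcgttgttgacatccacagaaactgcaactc
Sntn: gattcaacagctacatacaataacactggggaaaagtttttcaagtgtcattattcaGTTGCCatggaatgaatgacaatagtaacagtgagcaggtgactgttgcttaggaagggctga

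Genes against oxidative and chemical stress were lower. Of 13 targets of NRF2, the transcription factor that answers oxidative stress, 10 were lower and 0 higher (median -1.27). Gclc, the catalytic subunit of the enzyme that limits glutathione synthesis, had 8.99 in 2WND+2W+D and 11.49 in 2WND, a 5.67-fold difference. Its partner subunit Gclm had 8.26 and 9.60. Nqo1, a quinone reductase, had 7.10 and 8.62. Slc7a11, the cystine importer (2.94-fold), Srxn1, sulfiredoxin (2.72-fold), and Hmox1, haem oxygenase 1 (2.13-fold), were lower too. Of the 10, 1 had its lowest value of the 5 arrays in 2WND+2W+D, and Nqo1 ran 4.59 on Day0, 8.62 in 2WND, 7.10 in 2WND+2W+D, 8.29 in 2WND+2W+D+2W-D and 5.58 in the iPS array. Of the promoters of 10 of these genes, 2 held the antioxidant response element (TGACNNNGC on either strand) within 250 bases of the start, against 13.6% of all, a search added after the values were seen.

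Enzymes that handle foreign compounds were lower in 13 of 23 cases and higher in 1 (median -1.08). Cyp4b1, a lung cytochrome P450, had 7.40 in 2WND+2W+D and 11.34 in 2WND. Fmo1 had 5.54 and 9.35, and Cyp2s1 had 7.61 and 11.13. Gsta3, a glutathione transferase, was 23.7-fold lower and the retinal dehydrogenase gene Aldh1a1 5.72-fold lower, whereas Gsto1, another transferase, was the higher one. Several of these genes are expressed in club cells, whose markers were also lower, and the part of club cells was not tested. By symbol, 12 Cyp genes were lower and 1 higher among the 41 that passed the level filter (98 had a probe). Of 277 solute carrier genes that passed it, 38 were lower and 12 higher. Over all genes compared 7.56% were lower and 6.9% higher. Fatty acid genes had 5 of 24 lower and 1 higher (median -0.61). The higher one was Elovl6, a fatty acid elongase, at 8.37 in 2WND+2W+D and 5.25 in 2WND, and the lower ones were Fabp4, Cd36, Pnpla2, Pparg and Fabp5. Fabp4, Cd36 and Pparg are also expressed in alveolar macrophages, whose part was likewise not tested. In contrast, 17 of 18 cholesterol synthesis genes, 22 of 26 glycolysis and hypoxia genes and 15 of 17 chaperone and unfolded protein response genes stayed within 2-fold, with Herpud1, a gene of protein degradation at the ER, 3.61-fold lower.

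Many leukocyte and macrophage genes were lower. Of 21 macrophage genes 13 were lower and 0 higher (median -1.62), and of 12 pan-leukocyte genes 8 were lower and 0 higher (median -1.58), while Itgax, an integrin of alveolar macrophages and dendritic cells, differed by 0.21. Of 19 genes of lymphocytes, neutrophils and mast cells, 17 were within 2-fold, 1 was higher and 1 lower, and 16 lay below 4.78 on both arrays. C1qb, a complement component of macrophages, had 7.77 in 2WND+2W+D and 10.61 in 2WND, and Cd48, a leukocyte surface gene, had 5.77 and 9.07. The summed linear signal of the macrophage list was 3318 in 2WND+2W+D and 18205 in 2WND, and that of the pan-leukocyte list 1892 and 6007. Most of these genes were still above 4.78, as Ptprc, the CD45 gene, was at 5.71. MHC class II and antigen processing genes, which AEC-II cells express as well, were mostly level, with 13 of 15 within 2-fold, H2-Aa at 10.45 in 2WND+2W+D and 10.12 in 2WND, and the immunoproteasome gene Psmb9 3.45-fold lower. Chemokines and interleukins went both ways, with 8 of 37 higher and 4 lower. Cxcl14 had 12.22 in 2WND+2W+D and 9.70 in 2WND, whereas Cxcl17, a mucosal chemokine, had 7.18 and 10.54. Interferon response genes were within 2-fold in 23 of 25 cases. Retnla, a resistin-like gene, was 8.59-fold higher and was the 1 higher gene of 21 in the complement and acute phase list, in which 5 were lower, among them Orm1, an acute phase protein (5.44-fold).

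Among the genes of the 4 reprogramming factors 3 were within 2-fold and 1 was lower. Klf4 had 9.12 in 2WND+2W+D and 8.65 in 2WND, Myc had 8.37 and 8.26, and Pou5f1 had 5.32 and 5.09. Pou5f1 reached only 6.61 on the iPS array. Sox2 had 4.40 in 2WND+2W+D and 6.50 in 2WND. In a normal airway it is a gene of ciliated and club cells, whose markers were lower too, and the part of these cells was not tested. Whether the probes of these genes read the transgene cassette was not tested. The paper measured the OSKM transgene by qRT-PCR and reports that its expression fell after Dox withdrawal. Of 23 pluripotency genes 20 were within 2-fold, 3 were lower (2 counted from 4.78) and 0 were higher, and 13 lay below 4.78 on both arrays. Among the genes known to move early in reprogramming, Cd44, a hyaluronan receptor, was higher (9.63 in 2WND+2W+D, against 7.91 in 2WND), Fbxo15 was lower (4.09, against 5.32) but not counted from 4.78, and 9 of 11 were within 2-fold. Of 20 DNA methylation and chromatin genes 19 were within 2-fold, and Uhrf1, which guides maintenance methylation in dividing cells, was 2.13-fold higher.

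Classes of noncoding genes differed in their counts. Of 80 small nucleolar RNA genes with a probe 21 were higher and 0 lower, and of 478 microRNA genes 48 were higher and 4 lower, where of all 22180 genes with a probe 4.96% were higher and 5.37% lower. Counted from 4.78, 17 snoRNA genes (21.2%) and 20 microRNA genes (4.18%) were higher, beside 4.25% of all genes, so at that count the share of microRNA genes was no higher than that of all genes. Of 1926 long noncoding RNA genes 24 were higher (1.25%) and 40 lower (2.08%), both shares below those of all genes. Part of the higher small RNA genes lie in the imprinted Dlk1-Dio3 region of chromosome 12 (109452485 to 110281097, GRCm38.p6), which was singled out after its values were seen. In mouse this region is known to express long noncoding RNAs, snoRNAs and a large microRNA cluster from the maternal chromosome, and its expression varies between iPS cell lines. Of its 54 genes with a probe 26 were higher and 0 lower, 13 of them when counted from 4.78. All 5 snoRNA genes were higher, as were 20 of 43 microRNA genes and 1 of 4 long noncoding RNA genes. Rian, the host RNA of the snoRNAs, had 8.78 in 2WND+2W+D and 5.54 in 2WND, and ran 3.97 on Day0, 5.54 in 2WND, 8.78 in 2WND+2W+D, 5.49 in 2WND+2W+D+2W-D and 7.51 in the iPS array. The snoRNA AF357425 had 10.19 in 2WND+2W+D and 5.80 in 2WND. Meg3, the best known long noncoding RNA of the region, differed by 0.25, and the protein-coding genes Dlk1 and Dio3 differed by 0.13 and 0.57.

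**Figure D5:**
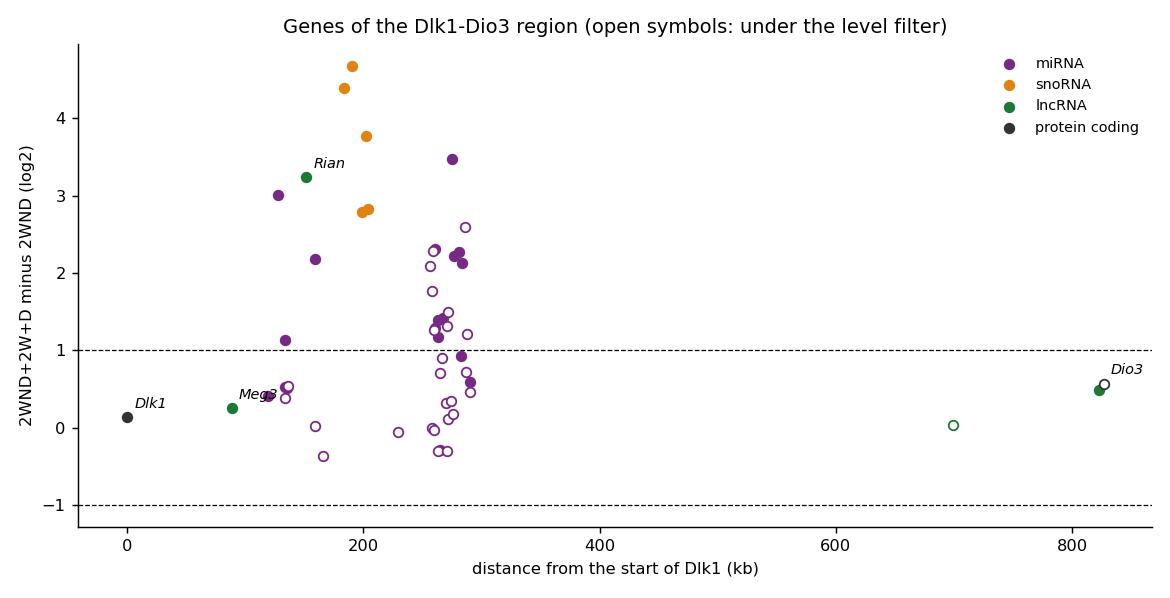
Difference 2WND+2W+D minus 2WND (log2) of the 54 genes of the Dlk1-Dio3 region against the distance from the start of Dlk1 in kb, by kind of gene, with open symbols for genes under the level filter and dashed lines at 2-fold. The snoRNA genes lie between 2.79 and 4.68, Rian at 3.24, and Meg3, Dlk1 and Dio3 inside the dashed lines.

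The array reads RNA from the annotated microRNA genes, and whether a value stands for the mature microRNA or a longer precursor was not tested. Mature sequences from RefSeq (GRCm38.p6) matched 30 of the 33 microRNA genes compared that were at least 2-fold higher. Those of the Dlk1-Dio3 genes with the largest differences counted from 4.78 are printed with the seed, bases 2 to 8, in capitals. With dim values left as they were, Mir382 (2.27) and Mir544 (2.22) differed by more than Mir341 (2.18). Mir487b had 7.01 in 2WND+2W+D and 3.54 in 2WND, Mir493 had 6.17 and 3.17, Mir329 had 7.68 and 5.37, and Mir341 had 7.54 and 5.36.
mmu-miR-487b-5p: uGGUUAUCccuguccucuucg
mmu-miR-493-3p: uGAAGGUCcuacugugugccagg
mmu-miR-329-3p: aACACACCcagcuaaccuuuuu
mmu-miR-341-3p: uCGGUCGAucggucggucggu
Outside this region 28 of 435 microRNA genes were higher (6.44%, beside 4.96% of all genes) and 4 lower, and counted from 4.78 there were 13 higher (2.99%, beside 4.25%). Mir200c, a microRNA of epithelial cells that represses Zeb1, had 6.51 in 2WND+2W+D and 3.17 in 2WND, at least 3.32-fold, beside Zeb1 itself at 6.92 and 5.96. The neighbours Mir23a (7.51 in 2WND+2W+D, against 6.30 in 2WND) and Mir27a (8.33, against 6.64), which share 1 transcript, were both higher.
mmu-miR-200c-3p: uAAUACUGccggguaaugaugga
mmu-miR-23a-3p: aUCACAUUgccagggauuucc
mmu-miR-27a-3p: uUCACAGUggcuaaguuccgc
Among the mature sequences listed, no seed was shared by 2 of the 30 genes, and 53 different seeds occurred in all. For some genes, such as Mir23b and Mir487b, only the 5p sequence was listed, so seeds of their other arm were not compared. The snoRNA genes outside the region were higher in 16 of 75 cases (21.3%, beside 4.96% of all genes) and lower in 0. Counted from 4.78, 12 were higher (16%, beside 4.25%). Most of these differences were moderate, such as Snord13 (10.20 in 2WND+2W+D, against 8.49 in 2WND) and Snora23 (9.50, against 7.86).

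Xist, the RNA that coats the inactive X chromosome, had 8.85 in 2WND+2W+D and 5.27 in 2WND, an 11.9-fold difference, and stood at 4.08 on Day0, 5.37 in 2WND+2W+D+2W-D and 4.74 in the iPS array. The Y-linked genes Kdm5d (6.55 in 2WND+2W+D, against 6.32 in 2WND), Uty (6.54, against 7.03) and Eif2s3y (5.92, against 6.50) were within 2-fold. The sex of the mice and of the feeder embryos is not given for the arrays, and their part in these values was not tested. Over the X chromosome as a whole 36 of 514 genes were higher and 34 lower, with a median of -0.01.

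Hox genes, which carry positional identity, were higher in 8 of 36 cases and lower in 0 (5 counted from 4.78). All 8 came from the B and C clusters. Hoxc8 had 8.23 in 2WND+2W+D and 5.20 in 2WND, Hoxb9 had 7.73 and 5.49, and Hoxc6 had 7.25 and 5.47. All 8 had their highest value of the 5 arrays in 2WND+2W+D, beside 77.9% of all higher genes, and Hoxb2, Hoxb3 and Hoxb7 passed the level filter only through that array. Hoxc8 was at 6.37 after withdrawal. The median of the list was 0.46, or 0.12 when counted from 4.78. Other genes of the mesenchyme were higher beside them, with 9 of 21 fibroblast and pericyte surface genes higher and 1 lower, led by Mcam (10.06 in 2WND+2W+D, against 7.17 in 2WND) and Prrx1, a mesenchymal homeobox gene (10.88, against 8.91). Of 11 transcription factor and cadherin genes of the epithelial-mesenchymal transition, 3 were higher and 0 lower. Their median was 0.89, as was that of the fibroblast and pericyte surface genes. Snai2 was 2.82-fold higher, and Zeb1 (0.97) and Twist1 (0.93) were within 2-fold. Vim, vimentin, differed by 0.71. Of 12 housekeeping genes all were within 2-fold, with differences between -0.65 for Sdha and 0.46 for Pgk1 and a median of 0.06.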

How the data were processed

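RNA of 5 conditions was profiled on Affymetrix Mouse Gene 2.0 ST arrays, 1 array each, and the authors processed them with Affymetrix Expression Console. The deposited values are log2 signals; the summarization algorithm, the normalization and the genome build are not given in the sources used here. Values were used as deposited. Of 41345 probes, 23521 have 1 gene symbol, 1820 several and 16004 none; 23328 of the first were matched to RefSeq (GRCm38.p6) by gene identifier. Genes were called at a difference of 1 or more, with no test, as each condition has 1 array, and array number limits the precision. The calculation was tested on simulated data. The 66 gene lists (1258 genes) and the comparison itself were chosen with earlier results of these data known. Named genes are the 25 largest differences in each direction, the 5 largest in each list and the markers of the study, with predicted genes left out by the form of the symbol; others given for contrast, by role or as small RNAs were chosen after their values were seen. Probes of a gene disagreed in sign for 20 of 78 called genes with several probes above the filter. Promoter motifs were searched in the 250 bases before the start. Alternatives were 2 normalizations, 2 filters, the probe mean, a 4-fold threshold, raised dim values and all probes. Python 3.11.15, numpy 2.4.6 and pandas 2.3.3 were used.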

Additional observations from a re-analysis of the deposited data

Results flagged for a closer look

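Probes outside the gene comparison also differed between the 2 arrays. Of 7431 probes with no gene symbol that pass the level filter, 1120 were at least 2-fold higher in 2WND+2W+D than in 2WND (15.1%) and 325 were at least 2-fold lower (4.37%), which is a larger share on the higher side than among the genes compared (6.9%). Of 1201 probes with several gene symbols, 76 were higher (6.33%) and 54 lower (4.50%). What these probes read was not analysed here.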

How the results depend on the processing

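Under both other normalizations, without the level filter, with a filter at the 75th percentile, with the probe mean and with dim values raised to 4.78, the counts of higher (831 to 1101) and lower genes (924 to 1246) stayed within 1.5 times. At 4-fold, 239 genes were higher and 297 lower. With all probes each as 1 feature, 2308 were higher and 1578 lower. No list median moved by 0.23 or more under the 2 normalizations. With the probe mean, the smooth muscle median was 1.89. With dim values raised to 4.78, the medians were 0.54 for mitosis, 0.16 for histone genes, 0.12 for Hox genes, 0 for EGF family ligands and 0 for cornified envelope genes. Of 339 named genes, 42 moved by 0.23 or more with dim values raised, 15 with the probe mean and 0 under the normalizations, and no called difference changed sign. No paired analysis was possible because each condition has 1 array, and no array could be left out. Dim genes are the least certain, since no detection calls or background levels were used.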

Other observations

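Some genes known from other lineages were at least 2-fold higher in 2WND+2W+D beside the contractile and matrix genes. Most members of these lists were within 2-fold. Of all genes with a probe, 4.96% were higher and 5.37% lower. Of 15 neural and neuroendocrine genes 4 were higher, 1 was lower and 10 were within 2-fold (median 0.02). Ncam1, a neural cell adhesion gene, had 10.86 in 2WND+2W+D and 8.56 in 2WND, and Nes, the intermediate filament nestin, had 6.42 and 5.15. Of 15 chondro-osteogenic genes 4 were higher and 0 lower, with Sp7, the osteoblast factor osterix, at 6.37 in 2WND+2W+D and 4.23 in 2WND. Of 19 genes of the IGF axis and imprinted growth genes 6 were higher and 0 lower, among them Igfbp2 (3.40-fold) and Mest (3.01-fold). The growth factor Fgf7, made by mesenchyme and received by epithelium, had 9.25 in 2WND+2W+D and 6.58 in 2WND. Msln, mesothelin, had 10.43 in 2WND+2W+D and 8.46 in 2WND, but of 11 mesothelium genes 8 were within 2-fold, 2 were higher and 1 lower, and Wt1 differed by -0.20. Fibroblast markers were higher on the same array, and their part in these values was not tested.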
